A study of Mus musculus with 12 samples.

Results

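The change from a haploid stem cell of paternal origin to an embryo with 2 paternal genomes was read as a difference at each cytosine: the methylation percent in the bipaternal (BP) embryo minus that in the early-passage androgenetic haploid embryonic stem cells (ahESCs). It was taken over autosomes 1 to 19 wherever both libraries had a value, which held for 3539928 of the 8119606 cytosine positions listed in the series, or 45.3% of the 7811806 autosomal positions. Methylation had been measured by reduced representation bisulfite sequencing (RRBS), in which genomic DNA is cut with the enzyme MspI, fragments of 150 to 300 bp are kept and unmethylated cytosines are converted before sequencing. The series holds 12 mouse libraries with 1 library per group, so no value below has a replicate error, no difference was tested, and a difference of at least 25 percentage points is used only as a fixed mark of size.

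The ahESC library came from cultured cells of early passage that the labels call wild type (WT). The BP embryo was a whole embryo at embryonic day E15.5, labelled as a knockout of differentially methylated regions (DMRs), and in the published study such embryos were made by injecting an ahESC together with a sperm into an oocyte whose own nucleus had been removed. The labels do not name the deleted regions. Since the embryo is labelled DMR-KO and the cell library WT, that library is not the edited line from which the embryo was made, and at a region deleted from the ahESC genome an embryo value would come from the sperm copy alone. The embryo thus differs from the cells in tissue, in a second, sperm-derived genome, in the deletions and in having left culture, and these cannot be told apart. Used beside the pair were a WT embryo at E15.5 with early diploid embryonic stem cells (ESCs, WT), and a bimaternal (BM, DMR-KO) embryo at E15.5 with early parthenogenetic haploid ESCs (phESCs), which carry a genome of maternal origin. In the published study BM embryos were made by injecting a phESC into an oocyte.

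In mammals, DNA methylation at CpG dinucleotides is largely erased in the early embryo and put back around implantation by the enzymes DNMT3A and DNMT3B, while CpG islands at most gene starts stay free of it. Promoters of many genes that act only in germ cells are an exception and become methylated in somatic tissue. Imprinted regions keep the mark of the parental germ cell through both waves: most were methylated in the oocyte, a few in sperm, and further somatic marks are added later on one parental copy, often under the control of a germline region nearby. A genome of paternal origin does not carry the oocyte marks.

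The deposited values are percentages without coverage, so the read depth behind each is unknown. A value was given at 4285428 autosomal cytosines in the early ahESCs and at 3693078 in the BP embryo. The list mixes CpG with other cytosines and does not name the context, so the mean over all shared positions was low, at 12.2% in the cells and 14.0% in the embryo. Levels of tiles and promoters below are therefore taken over shared cytosines that reached 20% in at least 1 of the 10 other libraries. These were 686274 in number (19.4%), and 98.8% were CpG where the sequence could be placed. The neighbouring cytosines of both strands of a CpG were averaged into 1 of 512376 CpG units. The choice leaves out the cores of CpG islands that are unmethylated in every other library. For the imprinted windows the 20% mark could be reached in any of the 12 libraries, the pair included, and single cytosines were averaged. The stem cell libraries differed by passage: the mean over these units was 58.8% in early but 34.96% in late ahESCs, and 60.2% in early but 25.7% in late diploid ESCs, so the early ones were compared.

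Promoters whose level in the pair carries the findings below are shown first, each as 300 bases from 250 before to 50 after a RefSeq gene start (build GRCm38.p6), 5′ to 3′ on the gene's strand. Capitals mark the CpGs that had a value in both libraries. The values beside them are means over those cytosines, and the mm9 position is where the pattern of listed cytosines matched the sequence. Ddx4 (the germ cell RNA helicase Vasa), Mael (Maelstrom, a protein of the piRNA pathway that silences transposons in germ cells) and Tmprss12 (a testis serine protease) are shown for their gain. Barhl1 (a homeobox gene of neural cells) is shown for its lower level in the embryo, at a different annotated start from the one whose window is ranked among all promoters further on. Mcts2, Plagl1 and Zrsr1 are shown as imprinted promoters methylated on the maternal copy, which were near 0 in both libraries.
Ddx4: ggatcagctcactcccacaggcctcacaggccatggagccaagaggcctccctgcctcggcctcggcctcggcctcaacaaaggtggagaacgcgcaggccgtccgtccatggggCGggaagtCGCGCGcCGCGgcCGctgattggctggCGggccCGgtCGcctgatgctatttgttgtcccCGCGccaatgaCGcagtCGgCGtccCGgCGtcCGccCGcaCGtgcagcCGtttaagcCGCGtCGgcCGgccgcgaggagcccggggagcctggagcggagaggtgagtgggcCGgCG
Mael: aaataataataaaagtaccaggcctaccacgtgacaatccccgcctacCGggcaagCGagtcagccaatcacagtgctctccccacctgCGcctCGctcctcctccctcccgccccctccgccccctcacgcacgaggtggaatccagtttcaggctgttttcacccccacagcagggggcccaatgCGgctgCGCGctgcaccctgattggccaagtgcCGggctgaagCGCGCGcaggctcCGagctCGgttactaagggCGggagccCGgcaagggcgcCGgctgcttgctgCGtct
Tmprss12: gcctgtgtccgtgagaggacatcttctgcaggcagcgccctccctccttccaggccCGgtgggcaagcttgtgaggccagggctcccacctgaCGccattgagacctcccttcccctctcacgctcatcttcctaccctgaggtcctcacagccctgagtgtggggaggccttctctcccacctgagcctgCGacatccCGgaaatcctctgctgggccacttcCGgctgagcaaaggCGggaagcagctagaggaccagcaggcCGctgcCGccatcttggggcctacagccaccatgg
Barhl1: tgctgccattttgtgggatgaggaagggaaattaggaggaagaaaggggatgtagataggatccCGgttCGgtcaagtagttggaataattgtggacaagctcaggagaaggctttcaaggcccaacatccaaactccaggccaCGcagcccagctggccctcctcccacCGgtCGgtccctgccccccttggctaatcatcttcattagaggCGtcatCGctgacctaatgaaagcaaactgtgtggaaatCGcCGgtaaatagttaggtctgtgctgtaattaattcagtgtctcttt
Mcts2: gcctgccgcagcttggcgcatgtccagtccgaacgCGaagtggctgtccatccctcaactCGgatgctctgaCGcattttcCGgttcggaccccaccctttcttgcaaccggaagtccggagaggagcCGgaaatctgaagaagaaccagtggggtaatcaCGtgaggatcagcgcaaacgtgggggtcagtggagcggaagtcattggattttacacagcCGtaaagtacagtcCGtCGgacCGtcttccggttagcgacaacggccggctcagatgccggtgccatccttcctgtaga
Plagl1: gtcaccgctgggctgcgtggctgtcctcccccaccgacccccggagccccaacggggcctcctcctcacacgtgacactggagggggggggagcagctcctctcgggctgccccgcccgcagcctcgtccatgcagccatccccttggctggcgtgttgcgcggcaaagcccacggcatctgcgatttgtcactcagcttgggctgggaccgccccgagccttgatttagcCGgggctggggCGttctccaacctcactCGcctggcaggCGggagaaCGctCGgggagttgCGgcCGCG
Zrsr1: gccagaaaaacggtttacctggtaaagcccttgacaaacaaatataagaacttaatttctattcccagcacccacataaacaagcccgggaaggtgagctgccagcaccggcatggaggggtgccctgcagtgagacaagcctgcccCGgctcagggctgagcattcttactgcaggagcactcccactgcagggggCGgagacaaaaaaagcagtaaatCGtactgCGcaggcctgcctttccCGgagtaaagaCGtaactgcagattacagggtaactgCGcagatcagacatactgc

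The 27 measured CpGs of the Ddx4 stretch (chr13:113442469-113442768, mm9, chromosome 13) averaged 6.04% in the early ahESCs and 67.5% in the BP embryo, and single cytosines ranged from 0 to 21.4% in the cells and from 29.3% to 90.5% in the embryo, so the ranges did not overlap. The 17 CpGs of Mael (chr1:168168826-168169125) averaged 17.4% and 87.1%, with ranges of 1.67% to 70.2% and 54.5% to 100%. The 8 CpGs of Tmprss12 (chr15:100111018-100111317) averaged 7.59% and 91.6%, again with separate ranges (up to 19.96% in the cells, from 73.3% in the embryo). In Barhl1 (chr2:28772139-28772438) the order was the reverse, with 29.9% in the cells and 4.10% in the embryo over 9 CpGs. Mcts2 (chr2:152512634-152512933, 10 CpGs) had 1.62% and 2.78%, Plagl1 (chr10:12810388-12810687, 9 CpGs) 0.766% and 0.477%, and Zrsr1 (chr11:22871755-22872054, 7 CpGs) 1.27% and 2.36%. In the WT embryo these 3 imprinted stretches had 81.5%, 55.3% and 56.1%.

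Short motifs were searched in such stretches on both strands, as a description of their letters. They were TGCCGC, the core of the site of the imprint-keeping protein ZFP57, CACGTG, an E-box, and TCCCGC, a site of the E2F6 type. TGCCGC and TCCCGC share their closing CCGC, but no run of letters matches both. Of 7849 placed stretches with at least 5 measured CpGs, 25.2% held TGCCGC, 10.7% CACGTG and 45.1% TCCCGC, against 11.6%, 7.14% and 20.2% of all 31396 autosomal stretches. Among the 82 stretches higher in the embryo by at least 25 points the shares were 18.3%, 18.3% and 32.9%, and among the 28 lower ones 14.3%, 3.57% and 21.4%. The sets differ in CpG content, with a median of 27 CpGs in the 7849 stretches, 16 in the higher and 11 in the lower ones, and its part in these shares was not tested. The Mael and Ddx4 stretches held CACGTG and TCCCGC, Tmprss12 held TGCCGC and TCCCGC, Mcts2 held TGCCGC and CACGTG, Plagl1 held all 3, and Zrsr1 and Barhl1 held none of the 3.

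Across the autosomes the embryo was more fully methylated than the cells. The mean over CpG units was 58.8% in the early ahESCs and 68.4% in the BP embryo, a mean difference of 9.58 points and a median one of 6.25. Units over 80% made up 35.7% in the cells and 55.7% in the embryo, units between 20% and 80% made up 43.3% and 27.2%, and units at or under 20% made up 21% and 17%. Of the partly methylated units 53.6% were over 80% in the embryo, while 69.4% of the units at or under 20% were still there. Only 230 of the 512376 units went from over 80% to 20% or less. Over all CpGs of known context in exons and promoter stretches, whatever their level, the means were 14.7% and 18.4% (677895 cytosines). That set differs both in having no filter on level and in its position, and their parts in the smaller difference were not told apart.

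Tiles of 1 kb with at least 3 such units numbered 80124. Of these, 11234 were higher in the embryo by at least 25 points (14.0%) and 2144 were lower (2.68%), and the median tile differed by 5.75 points. In the 9189 tiles with at least 20 methylatable cytosine positions, called CpG-dense here, 2825 were higher (30.7%) and 177 lower (1.93%). A methylatable position is one that reached 20% outside the pair, so the number is not a count of CpGs in the sequence. It takes in the other embryos and the brains, so it is not independent of a gain in the embryo. With the mark reached in the other stem cell libraries alone, 21.9% of 5418 CpG-dense tiles were higher, against 12.3% of all tiles. The share of higher tiles went up with the number of methylatable positions, from 9.19% of tiles with 3 to 5 positions to 43.3% of tiles with 40 or more. Among tiles under 50% in the cells it went from 19.24% in the sparsest class to 69.8% at 30 to 39 positions and 66.5% at 40 or more, so the share was lower in the sparse classes there too but did not go up further in the densest one. By level in the cells, 17.4% of tiles under 10%, 45.3% of those from 10% to 25%, 47.5% of those from 25% to 50% and 13.3% of those from 50% to 75% were higher. A tile over 75% cannot gain 25 points and a tile under 25% cannot lose them, and grouping by a value that also enters the difference favours change toward the middle.

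**Figure D1:**
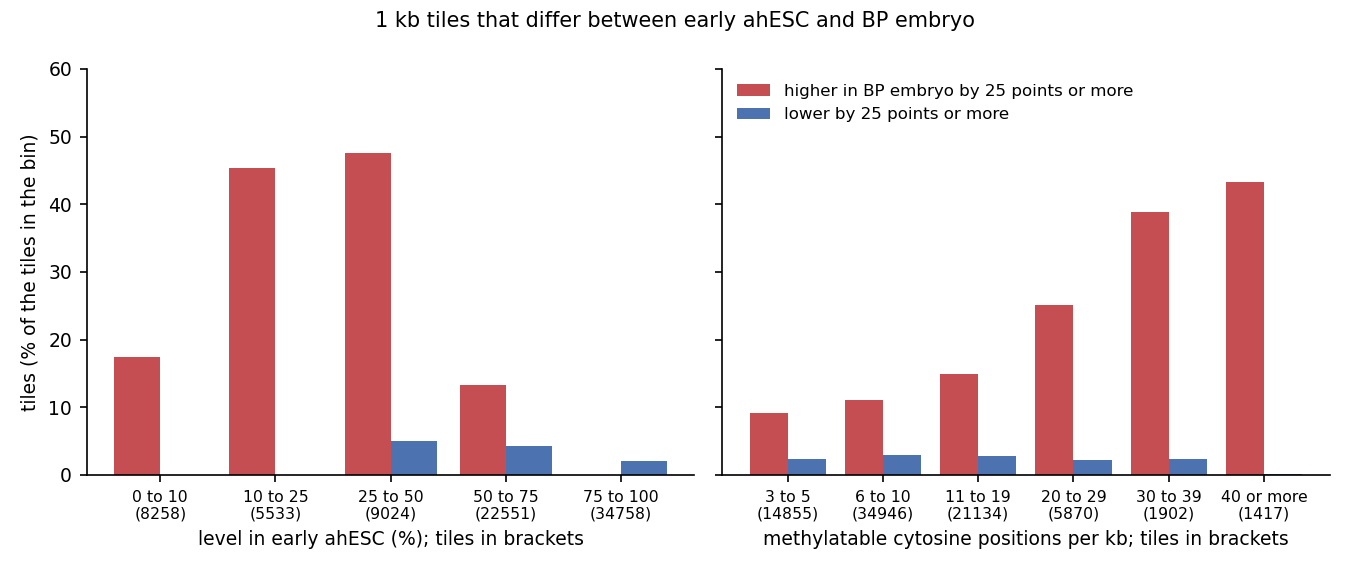
Percent of 1 kb tiles (y axis) that were higher (red) or lower (blue) in the BP embryo than in the early ahESCs by at least 25 percentage points, by the tile's level in the ahESCs (left) and by its number of methylatable cytosine positions (right). Higher tiles reached 47.5% at a starting level of 25% to 50% and 43.3% in the densest class, while lower tiles stayed at or under 5.02% in every class.

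The share of higher tiles also differed by position in the gene. Tiles inside a promoter window had medians of 8.63% in the cells and 8.59% in the embryo, and 8.51% of them were higher by at least 25 points, less than the 14.0% of all tiles. Tiles in first exons outside promoter windows (17.7% higher), internal exons (17.1%) and last exons (19.04%) lay above it, and other sequence (13.8%) lay close to it. By chromosome the share of higher tiles ran from 12.3% on chromosome 1 to 16.8% on chromosome 17.

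The 10 CpG-dense tiles with the largest gains went from nearly unmethylated to nearly full methylation. They lay by Jade1, a scaffold gene of histone acetylation (2.85% in the cells, 96.2% in the embryo), in an internal exon of Zmynd8, a chromatin reader (3.73% and 95.04%), in an internal exon of Rest, the repressor of neuronal genes (7.76% and 97.6%), by Rad51c, a DNA repair gene (3.998% and 93.7%), and in the last exon of the transcription factor gene Bcl11b (2.85% and 92.0%). Next came a tile 17750 bp from the start of Nt5dc3 (6.15% and 94.3%), one in an exon by Zfp655 (7.60% and 94.97%), one 57339 bp from Fzd8 (8.29% and 95.2%, 3 CpG units), one 30741 bp from the start of Herc2 (6.68% and 93.6%), and the first exon region of Scamp4 (4.68% and 91.5%). The WT embryo was also over 90% at 9 of these and had 64.7% at Scamp4, and the early diploid ESCs were under 10% at 8 of them, with 17.3% by Nt5dc3 and 31.0% by Fzd8.

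The same difference was taken between embryo and early cells for the WT and the BM samples. On 72277 tiles measured in all 6 libraries, with the 20% mark reached in one of the remaining libraries, 10180 tiles (14.1%) were higher and 1869 (2.59%) lower in the BP embryo than in early ahESCs. For the WT embryo against early diploid ESCs the counts were 8911 (12.3%) and 3681 (5.09%). For the BM embryo against early phESCs they were 45546 (63.0%) and 179 (0.248%), with a tile mean in early phESCs of only 38.7%, against 60.4% in early ahESCs and 62.0% in early diploid ESCs. The 3 embryos had tile means of 69.3% (BP), 67.4% (WT) and 69.5% (BM). Tiles higher in both the BP and the WT step numbered 7754, or 76.2% of the BP list and 87.0% of the WT list, and tiles lower in both numbered 1483, or 79.3% and 40.3%. In the tiles higher in the BP step the median difference between the BP and the WT embryo was 1.66 points. With 1 library each, no difference between the steps was tested.

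Gene promoters were read from 1000 bp before to 500 bp after a placed gene start with at least 6 usable cytosines. Of 3242 measured promoters 356 (11.0%) were higher in the embryo by at least 25 points and 92 (2.84%) lower, and the median promoter differed by 0.442 points. The 3242 are the promoters that hold methylatable cytosines in some other library, out of 15160 genes with a placed start, and promoters that are unmethylated in every other library are not among them.

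Genes of the germ line were chosen as lists with earlier results of these data known. Of 35 measured promoters in the 3 germline lists (84 genes listed), 26 were higher in the embryo by at least 25 points and 0 lower, against 11.0% of all promoters. The median over the 35 went from 26.5% in the cells to 85.6% in the embryo. The other embryos and the brains took part in picking the usable cytosines, so the count is not independent of a gain in the embryo. With the mark reached in the other stem cell libraries alone, 21 of 29 were higher, against 9.82% of all promoters. Over CpGs of known context, whatever their level, 20 of 39 were, against 1.75%. With the mark reached in any library outside the pair, 13 of 14 were higher in the list of meiosis and the synaptonemal complex. This complex is the protein zipper between paired chromosomes, and the median difference in the list was 50.2 points. Msh4, a gene of meiotic crossing over, had 5.50% in the cells and 85.9% in the embryo. The 3 zipper genes Sycp1, Sycp2 and Sycp3 had 20.2%, 20.4% and 34.5% in the cells and 85.5%, 81.9% and 85.9% in the embryo. Spo11, whose product makes the meiotic DNA breaks, had 39.3% and 93.6%, Hormad1 and Hormad2, of the chromosome axis, had 32.1% and 14.7% in the cells and 78.3% and 67.4% in the embryo, and Sohlh2, a germ cell transcription factor gene, had 39.99% and 92.4%. The testis ADP/ATP carrier gene Slc25a31 had 39.7% and 88.8%. Fkbp6 (58.3% and 89.6%), Syce3 (59.5% and 90.4%), Meioc (26.5% and 54.1%) and the meiotic cohesin gene Smc1b (26.4% and 52.5%) made up the rest of the 13. Over all 12 CpGs of known context, whatever their level, Smc1b had only 5.46% and 8.83%. Mei1 was the exception, with 9.94% and 21.4% over 23 cytosines.

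In the list of the piRNA pathway and germ plasm 8 of 12 were higher and 0 lower. Rnf17, a Tudor domain gene, had the lowest level in the cells (3.19%) and 61.2% in the embryo. Mael had 21.7% and 85.6%, Gpat2 26.6% and 88.1%, Ddx4 8.08% and 68.5%, Tdrd1 31.5% and 77.2%, the RNA-binding gene Dazl 46.1% and 87.0%, Henmt1, which methylates piRNA ends, 10.95% and 47.5%, and Asz1 62.0% and 93.5%. Of the remaining 4, Boll had 10.8% and 35.2%, just under the mark, Tdrd9 was high in both (80.03% and 82.8%), and Tdrd5 (11.04% and 15.53%, 6 cytosines) and Tdrd6 (15.4% and 6.98%, 9 cytosines) were low in both. Among surface proteins and testis paralogs 5 of 9 were higher and 0 lower. Tex14, of the bridges between male germ cells, had 3.998% and 93.7% in a window it shares with the neighbouring Rad51c. The retrogene Rpl10l had 25.1% and 93.9%, the testis histone gene Hist1h2ba 22.8% and 89.6%, Tuba3a 52.8% and 87.4%, and Sox30 8.45% and 36.7%, but 2.49% and 6.64% over its 83 CpGs of known context, whatever their level. The 4 others were already between 55.6% and 91.9% in the cells.

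The early diploid ESCs and the WT embryo gave close values at the same promoters, with medians over the 35 of 32.3% and 84.9%, and 25 of them were higher there by at least 25 points (Syce3 had no WT embryo value). Ddx4 had 11.8% in early diploid ESCs, 9.13% in early phESCs, 73.1% in the WT embryo and 80.5% in the BM embryo. Germ cells make up a small part of a whole embryo, and their share in the embryo's values was not measured.

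**Figure D2:**
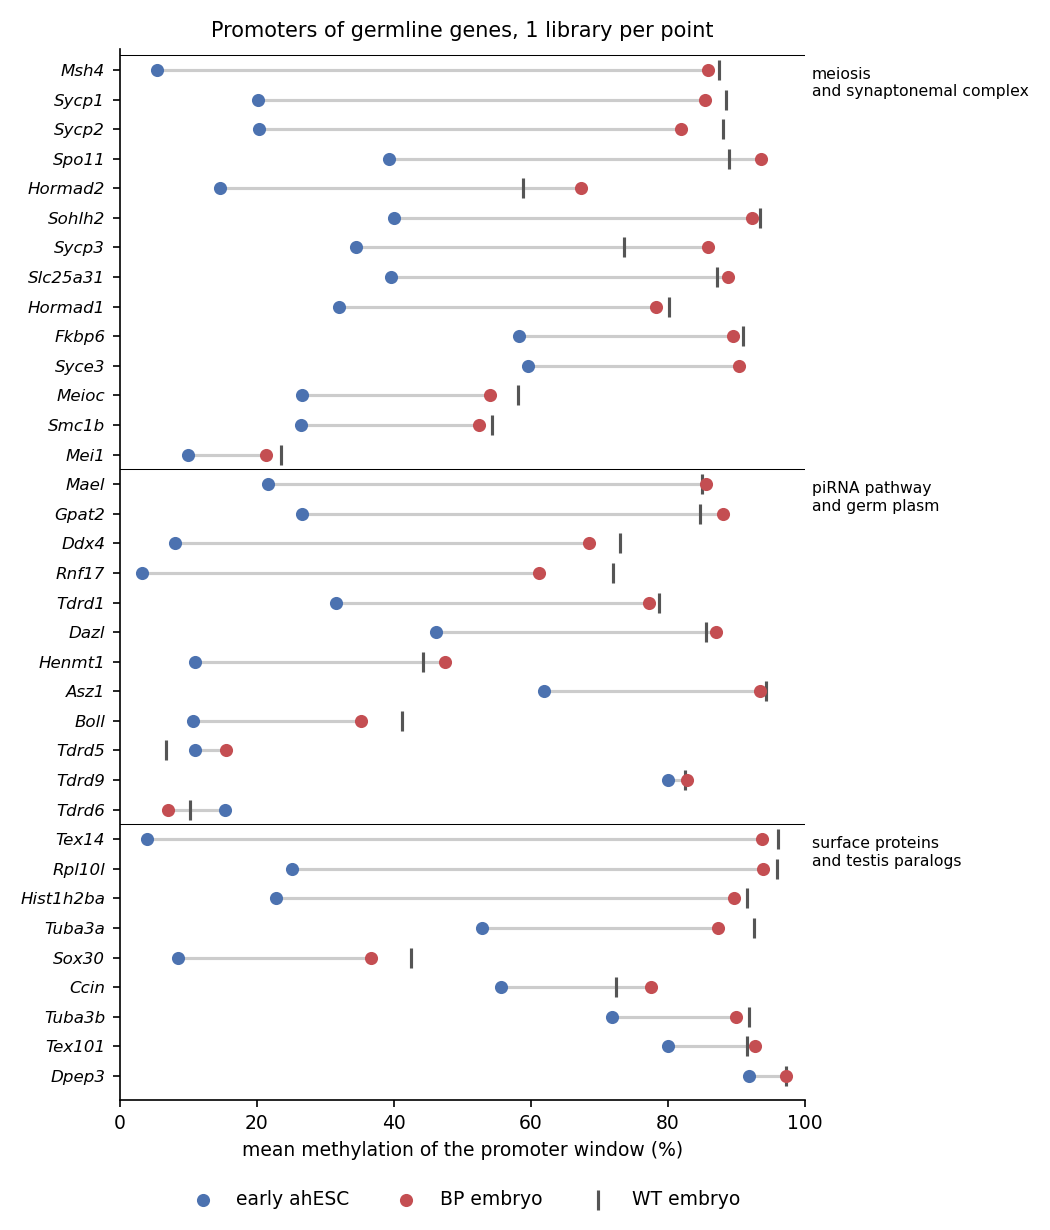
Mean methylation (x axis, percent) of 35 germline gene promoters in 3 groups, ordered by the difference. Blue points are the early ahESCs, red points the BP embryo and grey bars the WT embryo, 1 library each with no error. In 26 promoters the red point lies at least 25 points to the right of the blue one, and Tdrd6 is the promoter with a red point to the left.

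Outside the germ line the counts of higher promoters were smaller, and are to be read against the 11.0% of all promoters. In the pluripotency list 2 of 5 measured promoters were higher: Gdf3, a growth factor gene active in ESCs, had 2.42% in the cells and 69.1% in the embryo over 8 cytosines, and the zinc finger gene Zscan10 had 19.52% and 70.9%. Tet1, an enzyme that oxidises 5-methylcytosine, had 72.7% and 94.5% at the start measured here. The remaining members did not rise: Lefty1 had 37.6% and 21.3% over 10 cytosines, and Tbx3 5.18% and 3.92% over 8. Promoters of most listed pluripotency genes had no 6 usable cytosines, 5 of 42 being measured. Of 6 measured genes of methylation enzymes and readers 1 was higher, a share near that background, Zbtb38, which binds methylated DNA (3.97% and 47.2%), and Dnmt3a, Hells and Tet3 were under 10% in both libraries. Of 7 trophoblast and extraembryonic promoters 0 were higher or lower. Elf5, a trophoblast gene known to be methylated in the embryo proper, had 50.4% and 58.6% over 6 cytosines. Of the 14 measured clustered protocadherins, surface proteins whose promoters are chosen by neurons, 5 were higher (11.0% of all promoters were) and 0 lower, and the median over them differed by 23.5 points: 11 of the 14 started under 12% in the cells, and the embryo had between 13.2% and 77.7%.

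Promoters of developmental regulators were mostly lower in the BP embryo over the usable cytosines, though few by 25 points. The median difference was -6.05 points outside the Hox clusters and -6.47 at Hox. From early diploid ESCs to the WT embryo these medians were -0.498 and 0.490. Over all CpGs of known context, whatever their level, many were near 0 in both libraries of the pair. Examples are En1 (2.23% and 0.448%), Foxc1 (1.30% and 1.03%) and Hoxd8 (1.64% and 0.956%), but not Lhx1 (29.6% and 15.1%). Of 16 outside the Hox clusters 0 passed the mark, with a median difference of -6.05 points, the widest gaps being at Pax6 (25.9% in the cells, 3.30% in the embryo), Lhx3 (23.1% and 2.78%) and Tfap2a (25.5% and 5.37%). Of 13 Hox promoters, which encode positional identity, 3 were lower, against 2.84% of all promoters, and 0 higher: Hoxd4 (79.99% and 9.17%, 6 cytosines), Hoxc10 (52.9% and 21.9%) and Hoxa6 (38.9% and 13.9%). Over all CpGs of known context, whatever their level, Hoxc10 had 3.10% and 2.01% (8 CpGs) and Hoxa6 8.71% and 3.65% (31 CpGs), so the mark was passed there at Hoxd4 alone of the 3. Pax6 likewise had 11.6% and 1.46%, and Tfap2a 6.91% and 1.07%. In the list of muscle, bone and heart 1 of 11 was lower (2.84% of all promoters were), the heart regulator Nkx2-5 (32.5% and 4.98%). Among 4 promoters of blood and liver 1 was lower, against the same 2.84%, the blood regulator Lyl1 (43.9% and 8.41%), and of 3 fibroblast promoters 0 passed. The 9 neural promoters split, with 2 higher, among them the astrocyte gene Gfap (59.4% and 87.4%), and 0 lower, although Neurod2 (27.7% and 3.48%) came within 1 point of the mark. No gene of the 2-cell stage list was measured.

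**Figure D3:**
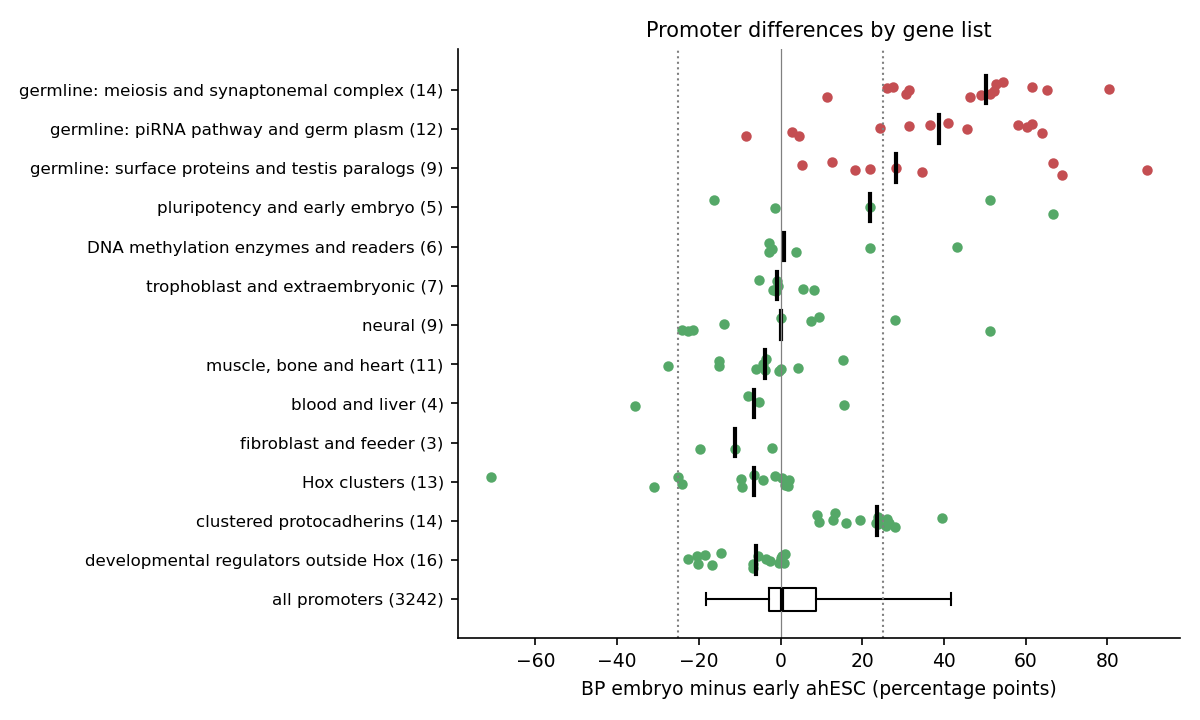
Difference between the BP embryo and the early ahESCs (x axis, percentage points) for every measured promoter of each gene list, with black bars at the list medians and dotted lines at 25 points either way. The box shows all 3242 promoters (quartiles, whiskers from the 5th to the 95th percentile). Medians run from 50.2 for meiosis to -11.2 for the 3 fibroblast promoters.

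Ranked over all promoters with at least 10 cytosines (1282), the largest gains were at Jade1 (2.85% and 96.2%), Tex14 with Rad51c, the guanine exchange factor gene Dnmbp (3.17% and 88.5%), Fbxl19 (7.15% and 91.5%), Tmprss12 (7.74% and 91.9%), the RNA gene Platr12 (2.09% and 85.8%), Msh4, the pseudogene Ybx1-ps2 (15.7% and 93.1%) and CN725425 (16.1% and 92.6%). Among the 10 largest losses were Sfta3-ps (49.8% and 1.81%), Barhl1 (48.5% and 2.42%, at chr2:28767515-28769015, apart from the stretch printed above), the glutamate receptor gene Grin2d (51.5% and 8.09%), Prdm8 (43.2% and 4.79%), Celf2 (46.1% and 7.65%), Camk2a (52.3% and 14.2%), the RNA gene Plut (41.3% and 3.73%), AC113458.1 (52.9% and 15.6%) and the cytokine gene Il11 (42.7% and 6.48%). The WT embryo lay at 72.8% or more at each of the 10 gains and at 21.3% or less at each of the losses named. At Prdm8 the 12 usable cytosines do not stand for the whole promoter, since its 11 CpGs of known context had 1.07% and 1.48%. Among 79 measured starts of pseudogenes, a set picked after seeing Ybx1-ps2 and Sfta3-ps and holding both, 22 were higher (27.8%, against 11.0% of all promoters) and 1 lower (2.84% of all promoters were). Their medians were 71.4% in the cells and 88.8% in the embryo. Tiles inside promoter windows had a median of 8.63% in the cells, so all promoters are not a matched background. In early diploid ESCs and the WT embryo the medians of these starts were 69.0% and 87.9%.

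Imprinted regions methylated on the maternal copy were mostly near 0 in both libraries. Of 19 measured windows of this kind, 18 were called imprinted because the WT embryo had between 25% and 75% there, and 13 of the 18 were under 10% in both the early ahESCs and the BP embryo. Over the 18 the median was 2.28% in the cells, 2.31% in the embryo and 52.9% in the WT embryo, and the means were 8.37% (SD over windows 18.9), 9.27% (SD 18.4) and 52.2% (SD 10.2). Early diploid ESCs had a mean of 44.9%, with Mcts2-H13 (0.912%), Slc38a4 (1.26%) and Gnas-1A (10%) low there, and late diploid ESCs had 2.30%. Early phESCs, of maternal origin, had a mean of 3.82% and a median of 1.91%, so a low level was not particular to the cells of paternal origin.

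The retrogene promoters that sit inside host genes were all low: Mcts2-H13 (1.07% and 1.51%, with 70.3% in the WT embryo), Nap1l5-Herc3 (2.46% and 2.59%), Zrsr1-Commd1 (1.13% and 2.08%) and Inpp5f (2.10% and 3.61%). So were the promoters of the silencing RNAs, Kcnq1ot1 (1.39% and 1.28%) and Airn in Igf2r (1.30% and 1.87%), which act on the neighbouring genes in cis. The growth regulators Plagl1 (1.19% and 1.01% over 66 cytosines) and Grb10 (5.79% and 2.55% over 91), the zinc finger gene Peg3 with Usp29 (3.43% and 1.86%), Peg10-Sgce (1.21% and 0.847%), Slc38a4 (1.41% and 1.26%, 6 cytosines) and Impact (2.10% and 1.42%) lay in the same range. The control region of the Gnas cluster, Gnasxl-Nespas, had 7.23% and 9.83% over 147 cytosines. Snrpn-Snurf, the control region of the Prader-Willi domain, had 4.38% and 1.19% over 7 cytosines, but was not called imprinted here because the WT embryo had 90.8% at the same 7. The published study deleted imprinted control regions in the ahESC genome, and the labels do not say which this embryo carried, so any of these embryo values may come from the sperm copy alone.

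**Figure D4:**
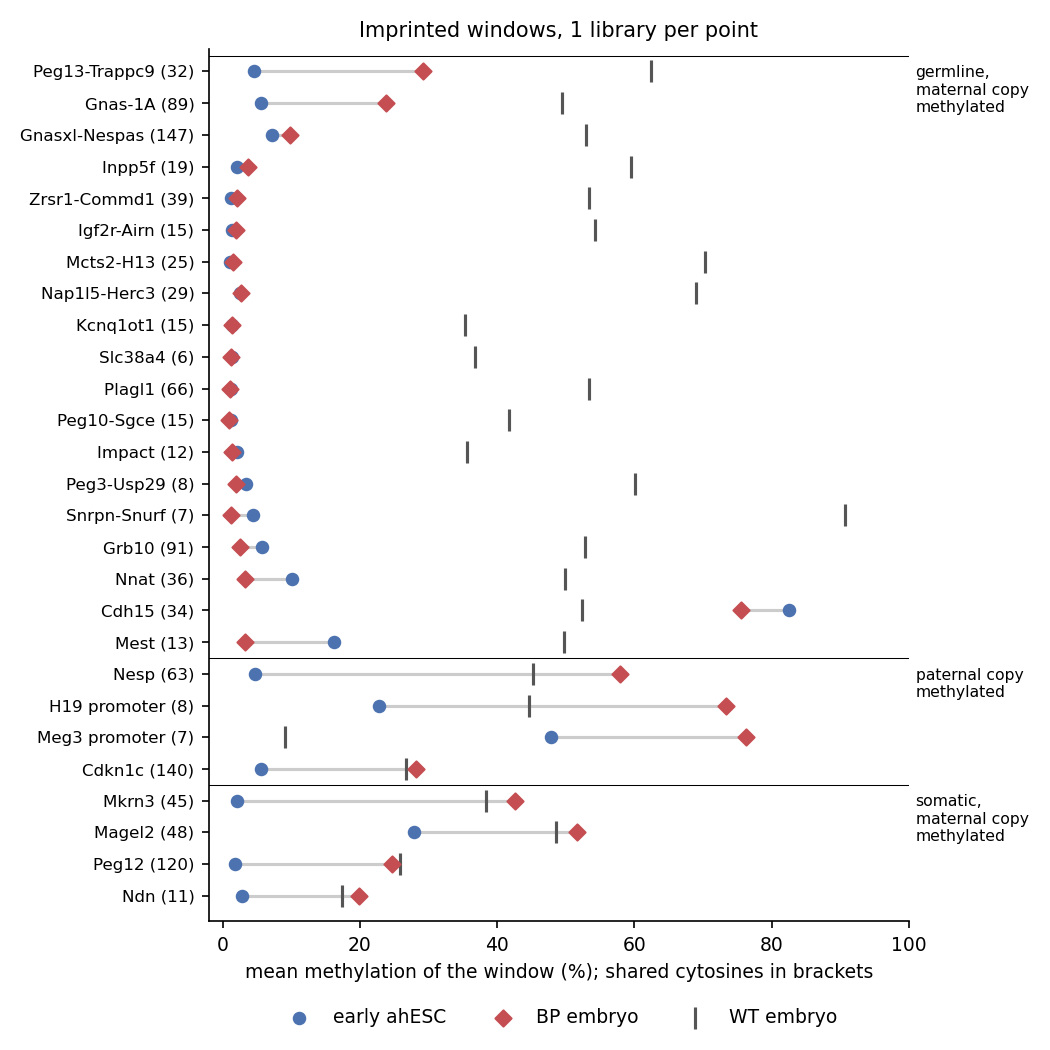
Mean methylation (x axis, percent) of 27 measured imprinted windows in the early ahESCs (blue circles), the BP embryo (red diamonds) and the WT embryo (grey bars), 1 library each, with the number of shared cytosines in brackets. Most windows methylated on the maternal copy have circle and diamond together near 0, with Peg13-Trappc9, Gnas-1A, Nnat, Mest and Cdh15 apart, while the windows of the lower groups lie to the right in the embryo.

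The 5 windows outside this pattern differed from each other. In 2 the cells were at or over 10% and the embryo lower: Mest, a hydrolase gene (16.3% and 3.21% over 13 cytosines), and Nnat, a brain proteolipid gene (10.04% and 3.29% over 36). The Mest window joins separate places: 5 cytosines (chr6:30685294-30685476) had 30.6% and 3.64%. Another 8 (chr6:30689254-30689334) had 7.35% and 2.95%, under 10% in both libraries. Cdh15, a cadherin gene with an island inside the gene, was high in both (82.5% and 75.6% over 34 cytosines), with 52.4% in the WT embryo and 86.5% in early diploid ESCs. In the last pair the embryo was higher. Peg13-Trappc9, the promoter of an RNA inside Trappc9 (chr15:72640130-72641106, 32 cytosines), had 4.52% in the early ahESCs and 29.2% in the BP embryo, 24.7 points apart, and no cytosine was over 17.03% in the cells or over 43.8% in the embryo. It had 62.4% in the WT embryo, 59.7% in the BM embryo, 66.5% in early diploid ESCs, 1.53% in early phESCs, and 2.08% to 8.79% in the 3 late-passage cultures. Gnas-1A, the alternative first exon of Gnas (chr2:174153351-174154479, 89 cytosines), had 5.51% and 23.8%, with 49.4% in the WT embryo, 60.7% in the BM embryo and 10% in early diploid ESCs. In both, the BP embryo lay between the cells and the WT embryo.

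The Gnas cluster on chromosome 2 held windows of each kind. Its Nesp region, methylated on the paternal copy only after fertilisation, had 4.76% in the cells and 57.9% in the embryo over 63 cytosines. The Gnasxl-Nespas control region stayed low except for a step of 500 bp (chr2:174123520-174123938, 30 cytosines) with 22.6% in the cells and 22.7% in the embryo, and another (chr2:174125513-174125997, 34 cytosines) with 2.36% and 11.4%. Gnas-1A was higher in the embryo in each of 3 steps, with 28.6%, 27.3% and 19.9% against 1.62%, 13.2% and 5.03% in the cells. Within Nesp the gain was uneven: 4 steps had 68.9%, 65.9%, 24.0% and 54.3% in the BP embryo, and 18.5%, 45.5%, 63.0% and 62.3% in the WT embryo.

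**Figure D5:**
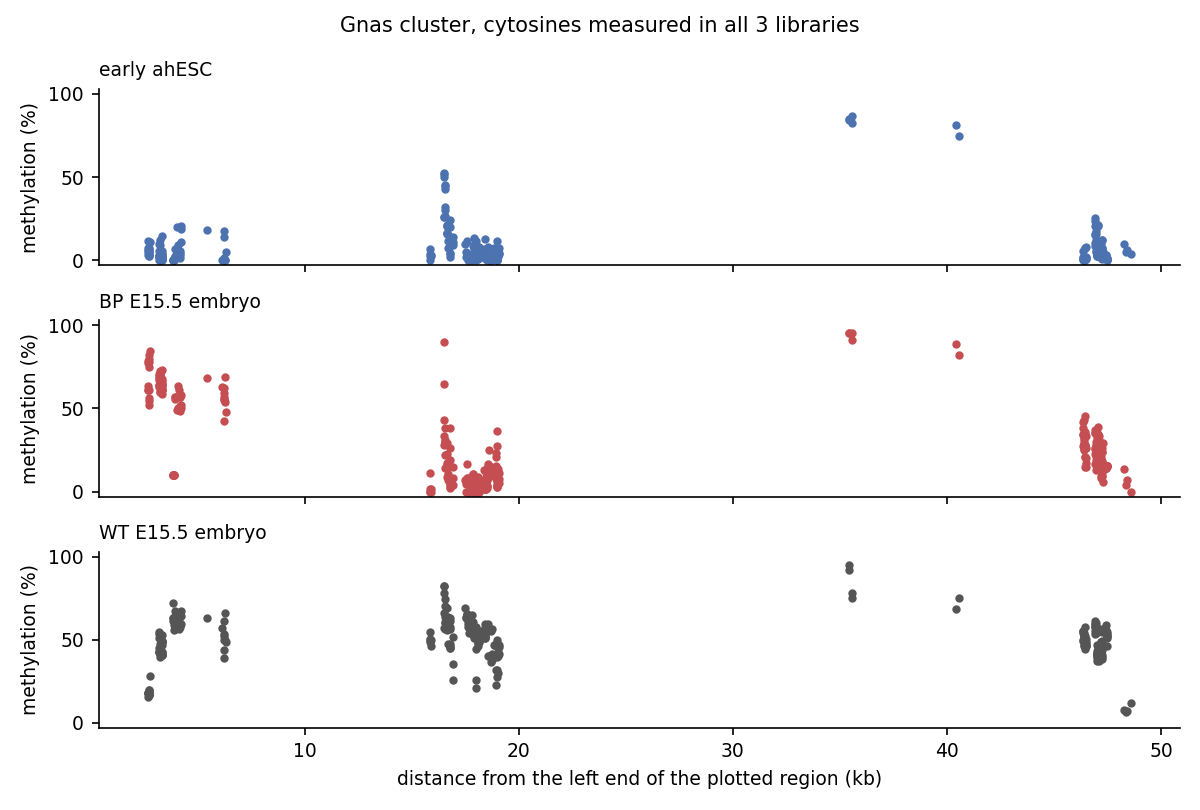
Methylation of single cytosines (y axis, percent) along the Gnas cluster, by distance in kb from the left end of the plotted region, in the early ahESCs (top), the BP embryo (middle) and the WT embryo (bottom). From left to right the groups of points are Nesp, Gnasxl-Nespas and Gnas-1A: Nesp is high in the BP embryo (57.9%), Gnasxl-Nespas low (9.83%) and Gnas-1A intermediate (23.8%).

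The measured windows listed as methylated on the paternal copy were higher in the embryo. Of 7 listed, 4 had at least 5 shared cytosines, all of them somatic regions and none a germline control region. Of the 4, 3 were higher by at least 25 points, against 14.0% of all tiles. The tiles were filtered on libraries outside the pair only, the windows on any library. Without the Meg3 promoter, which like Snrpn-Snurf was outside 25% to 75% in the WT embryo, the count was 2 of 3. The H19 promoter, of an RNA that is silenced on the paternal copy (chr7:149764070-149764148, 8 cytosines), had 22.8% in the early ahESCs and 73.4% in the BP embryo. In the other libraries it had 44.7% in the WT embryo, 1.74% in the BM embryo, 50.5% in early diploid ESCs, 9.21% in early phESCs, 1.43% to 9.42% in the late cultures, 40.2% in the adult WT brain, and 2.60% and 23.1% in the BM brains. Among 1 kb tiles it was the only one that was at least 60% in the BP embryo, between 25% and 75% in the WT embryo and under 10% in the BM embryo. The germline control region of H19 and Igf2 had only 4 shared cytosines, below the minimum, with 17% in the cells, 78.5% in the BP embryo and 68.6% in the WT embryo. Nesp is given above. Cdkn1c, a growth inhibitor gene of the Kcnq1 domain, had 5.51% and 28.2% over 140 cytosines, 22.7 points apart, with 26.7% in the WT embryo. The BM embryo, with no paternal genome, had 60.5% at Nesp and 32.7% at Cdkn1c. At both windows such a level was thus also seen in an embryo without a paternal genome. The BM embryo is labelled DMR-KO, and the part of its deletions in these values was not tested.

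The Meg3 promoter (chr12:110779130-110779281, 7 cytosines) had 47.8% in the cells and 76.3% in the BP embryo. The WT embryo had 9.05% over 5 of the cytosines and the BM embryo, with no paternal genome, 62.7%. The BM embryo is labelled DMR-KO, and the part of its deletions in this value was not tested. The control regions of Dlk1 and Meg3 and of Rasgrf1 had 0 shared usable cytosines. The promoter of Igf2r itself, which on the paternal copy is known to gain a somatic mark, was looked up after its value was seen: it had 1.55% in the cells and 37.9% in the BP embryo over 52 cytosines, with 34.8% in the WT embryo and 27.6% in the BM embryo.

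The 4 windows of the Prader-Willi domain with a somatic mark on the maternal copy were also higher in the BP embryo, although it has no maternal genome. Mkrn3 had 2.03% in the cells and 42.5% in the embryo over 45 cytosines, Magel2 27.9% and 51.7% over 48, Peg12 1.73% and 24.6% over 120, and Ndn 2.83% and 19.9% over 11. Only Mkrn3 passed 25 points. The WT embryo had 38.3%, 48.5%, 25.8% and 17.3% and the BM embryo 39.2%, 49.6%, 21.7% and 25.1%, so the 3 embryos lay within 8 points of each other at each of the 4 windows while Snrpn-Snurf in the same domain differed, with 1.19% in BP, 90.8% in WT and 4.12% in BM.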

How the data were processed

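RRBS methylation was analysed in 12 mouse libraries, 1 per group. The authors deposited a percent of methylated reads per cytosine in mm9 coordinates, without coverage. Per the submitters' processing notes the tools were Bismark 0.13.1 and Trim Galore. Other steps and settings are not given in the sources used here. Positions without a number were left out.

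From these values the BP embryo minus early ahESC difference was computed with Python 3.11.15, NumPy 2.4.6 and pandas 2.3.3, with figures in Matplotlib 3.10.9. The tile calling code was run on simulated data with known changes larger than the mark and an assumed read depth. That run checks the code only, since the real depth is unknown. Genes and sequence context were placed by matching the pattern of listed cytosines to GENCODE exons and RefSeq promoter stretches of build GRCm38.p6. At least 8 matched positions were needed and no coordinate was converted: 19.9% of stretches were placed, and 2 at a false shift of 2017 bp. Imprinted windows were set by hand in mm9 from general knowledge, compared with placed gene starts, and used with at least 5 shared cytosines. Promoters needed 6 usable cytosines and tiles 3 CpG units.

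Named were all imprinted windows, listed genes past 25 points, the 10 largest promoter differences each way with at least 10 cytosines, and the 10 CpG-dense tiles with the largest gain. Some genes that meet this rule are not reported here. The members and lists were chosen with earlier results of these data known. Alternatives covered the cytosine filter, the mark, the tile size and the minimum counts. A coverage minimum could not be tried.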

Additional observations from a re-analysis of the deposited data

Results flagged for a closer look

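The Meg3 promoter moved in opposite directions in the bipaternal and the wild-type samples. It was higher in the BP embryo than in early ahESCs by 28.5 points, and lower in the WT embryo than in early diploid ESCs, with a difference of -46.6 points. It rests on 7 cytosines, of which 5 had a value in the WT embryo. With 1 library each the difference was not tested.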

How the results depend on the processing

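No paired analysis was possible because each group has 1 library, and no library could be left out. Of 84 alternative values over 9 results, 52 stayed within 1.5 times the count or the spread over chromosomes. Only the mean difference, with 6 alternatives, could change sign, and 0 of these did. The other results are counts, which cannot reverse. The count of germline promoters higher in the embryo ran from 18 to 29 over 10 alternatives and that of maternally methylated windows under 10% from 11 to 15 over 5. With the filter on stem cell libraries alone, 1186 of 5418 CpG-dense tiles and 228 of 2321 promoters were higher and the mean difference was 8.44 points. With a 50% filter the mean was 12.3, and the median in place of the mean was 6.89. With CpGs of known context in exons, whatever their level, 3040 tiles, 1132 CpG-dense tiles and 213 promoters were higher, 286 tiles and 35 promoters lower, and the mean was 3.72. With a filter on embryo and brain libraries, chosen after seeing the data, 49 promoters were lower. At a mark of 15 points 19408 tiles and 574 promoters were higher and 4841 and 229 lower. At 40 points 5784 tiles, 1823 CpG-dense tiles and 172 promoters were higher and 580 tiles and 15 promoters lower. CpG-dense tiles higher in the embryo were 6384 of 31267 in 500 bp tiles, 821 of 2055 in 2 kb tiles and 1354 of 3319 with at least 30 positions. With at least 5 CpG units 6277 tiles were higher and 917 lower, and with at least 10 they were 1646 and 143, with 1487 CpG-dense tiles higher. With at least 10 cytosines 236 promoters were higher and 43 lower, and 1 paternally methylated window remained higher, since fewer windows were measured. Read depth is unknown and its effect could not be assessed.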

Other observations

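Outside the listed imprinted windows, 8 of the 80124 tiles were under 10% in both early ahESCs and the BP embryo, between 25% and 75% in the WT embryo and at least 25% in the BM embryo. These 8, picked by this pattern, lay at the starts of Mff, Frmd6, Ndufs6, Mir5046, Psat1, Mtch2, Ndufc2 and Cyb5b. Mff, with 5 CpG units, had 1.87% in the cells, 3.45% in the BP embryo, 32.8% in the WT embryo and 35.1% in the BM embryo. Mtch2 had 1.38%, 3.57%, 31.8% and 39.5% in the same order, and Mir5046, with 34 CpG units, 7.35%, 9.21%, 41.8% and 36.2%. Early diploid ESCs had 7.83% or less at all 8, unlike most listed windows. The brains did not all share the embryo level. In the BM E19.5 brain Mff had 2.74%, Ndufs6 2.91% and Cyb5b 3.12%, and the others had 31.7% or more. In the adult WT and BM brains Mtch2 had 2.92% and 4.63% and Psat1 16.3% and 11.0%, and the others, where measured, had 27.4% or more.

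Of the tiles higher in the BP step, 505 differed by less than 10 points that way in the WT step. One lay 1049 bp from the start of Rpp25l, with 7.09% in early ahESCs, 59.5% in the BP embryo and 15% in the WT embryo over 3 CpG units. Outside CpG, methylation at CA was 0.764% in early ahESCs and 0.561% in the BP embryo, against 1.31% in the BM E19.5 brain and 1.49% in the adult WT brain. At CC the values in the same order were 0.473%, 0.442%, 0.579% and 0.984%, and at CT 0.391%, 0.324%, 0.577% and 0.730%. The CA levels of the pair thus lay little above those of CC and CT.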
